A study of Homo sapiens with 6 samples.

Results

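WSB1 is a gene on the plus strand of chromosome 17, and its splice junctions were followed in K562, an established line from a human chronic myeloid leukaemia, with wild-type or mutant U2AF1. Its members were all plus-strand junctions lying between positions 25621000 and 25640700 of chromosome 17 (hg19, the build named in the submitters' processing notes). This gave 56 junctions of 780566 in the whole series, 18 of them annotated and 38 not, according to the annotation status in the files. All 56 had the GT-AG motif code. Another 5 junctions of this strand crossed an edge of the region, with 4 unique reads in all, and were left out. The gene was singled out because inclusion of an alternative exon, at 25634770 to 25634945, differed between the mutant and wild-type cells in these same libraries. Differences between the groups at WSB1 are therefore given as descriptions, with no test of their own.

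The control group was 3 libraries of K562 with a knock-in of wild-type U2AF1. The other group was 3 libraries from K562 cells with U2AF1 S34F, in which phenylalanine replaces serine in a zinc finger of the protein. Whether the replicates of a group came from separate clones or cultures is not given in the labels, so that the spread between them may be technical in part. The libraries held from 18074706 to 39279169 uniquely mapped spliced reads, with S34F replicate 2 the shallowest and S34F replicate 3 the deepest. The K562 identity and the mutation itself were not checked at their own genes, which were not placed on this build here.

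WSB1 encodes a protein with WD repeats and a SOCS box. The SOCS box binds the elongins B and C and, through them, a cullin and its RING protein, so that WSB1 acts as the substrate-recognising part of a ubiquitin ligase. HIPK2, a kinase that activates p53, and DIO2, a deiodinase that activates thyroid hormone, are among its reported substrates, and the gene is known to be induced in low oxygen. U2AF1 contacts the AG at the 3′ end of an intron, and S34F is known to shift its preference for the base just before that AG. Sequences of the WSB1 splice sites on this build were not analysed here.

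A chain of 9 exons, numbered 1 to 9 below, was linked by 8 annotated junctions. One of these, from exon 5 to exon 6, had fewer reads over the 6 libraries (963) than the annotated junction from exon 5 into the alternative exon (987). The donor (5′ splice site) of exon 1 had its first intron base at 25621462, and the acceptor (3′ splice site) before exon 9 had its last intron base at 25639235. Between them lay exon 2 (25628814 to 25628982, 169 nt), exon 3 (25630393 to 25630661, 269 nt), exon 4 (25631806 to 25631937, 132 nt) and exon 5 (25633808 to 25633908, 101 nt). They were followed by exon 6 (25636126 to 25636298, 173 nt), exon 7 (25637087 to 25637200, 114 nt) and exon 8 (25638535 to 25638642, 108 nt). The alternative exon lay in the 2217 nt intron between exons 5 and 6, and its length is not a multiple of 3. The 8 junctions of the chain and the junction from exon 5 into the alternative exon had more than 500 unique reads each over the 6 libraries, and together they held 95.7% of the WSB1 reads. Of the other 9 annotated junctions, the most-read was the one from exon 1 to exon 3, with 228 reads. Among the 38 unannotated junctions, 30 had at most 10 reads over the 6 libraries, and the most-read, from the end of the alternative exon to exon 6, had 77.

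Exon 5 was joined mainly to 2 acceptors, that of the alternative exon (last intron base 25634769) and that of exon 6 (last intron base 25636125). Both junctions are annotated. The acceptor of the alternative exon was joined by 234 of 411 reads leaving exon 5 in wild-type replicate 1, 206 of 353 in replicate 2 and 397 of 469 in replicate 3. In S34F the counts were 66 of 246 in replicate 1, 20 of 131 in replicate 2 and 64 of 348 in replicate 3. The groups did not overlap, and wild-type replicate 3 stood above the other 2 wild-type libraries.

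As shares of the reads leaving exon 5, these counts were 56.9%, 58.4% and 84.6% in wild-type replicates 1 to 3, and 26.8%, 15.3% and 18.4% in S34F replicates 1 to 3. The 95% Clopper-Pearson interval of the lowest wild-type library was 52.0% to 61.8%, and that of the highest S34F library was 21.4% to 32.8%. The reads carry no molecular identifiers, so these intervals describe counting error and no other source. The mean share was 66.6% ± 15.6 (SD) for wild type and 20.2% ± 5.98 for S34F (n = 3 each). Without wild-type replicate 3 the wild-type mean was 57.6%. With multi-mapped reads added, the lowest wild-type share was 56.1% and the highest S34F share was 29.8%. The share of the direct junction from exon 5 to exon 6 was the counterpart, at 32.8% ± 15.2 in wild type and 79.6% ± 5.9 in S34F.

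The reads that left the alternative exon were far fewer than those that entered it. The unannotated junction from its donor (first intron base 25634946) to exon 6 had 22, 16 and 21 reads in wild-type replicates 1 to 3 and 9, 3 and 6 reads in S34F replicates 1 to 3. A donor 12 nt upstream, also unannotated, added 13 reads to exon 6 over all libraries. From the main donor, 16 further reads went to an acceptor with its last intron base at 25635629. Counting every junction that starts at either donor, reads leaving the exon amounted to 12.8%, 11.2% and 7.56% of those entering it in wild-type replicates 1 to 3. In S34F they amounted to 18.2%, 15.0% and 14.1%. In both genotypes, then, most reads that entered at 25634770 had no matching spliced read leaving by these donors.

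The inclusion level of the alternative exon depended strongly on which junction was counted. From the mean of both inclusion junctions against the skipping junction it was 42.5%, 43.4% and 74.4% in wild-type replicates 1 to 3 and 17.2%, 9.39% and 11.0% in S34F replicates 1 to 3. The group means were 53.4% ± 18.2 and 12.6% ± 4.14. From the junction out of the exon alone, the means were 14.6% ± 6.94 in wild type and 3.16% ± 1.42 in S34F, and the difference between them shrank from -40.9 to -11.4 percentage points. The groups did not overlap under either definition, nor when the junction into the exon was counted alone.

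**Figure D1:**
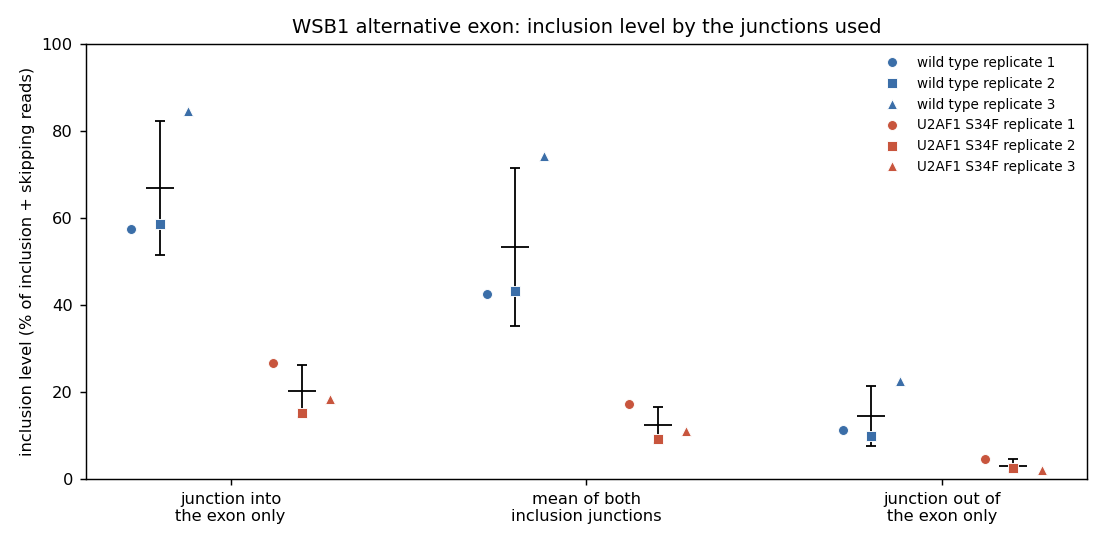
Inclusion level of the WSB1 alternative exon in percent (vertical axis) by the inclusion junction or junctions counted (horizontal axis); points are libraries, the wide tick is the group mean and the bar is 1 SD (n = 3). With the junction into the exon alone the means are 66.9% in wild type and 20.2% in S34F, and with the junction out of it alone they are 14.6% and 3.16%.

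Exon 6 showed the complementary imbalance. Reads entering it at its acceptor, from any donor, numbered 207, 165 and 104 in wild-type replicates 1 to 3, whereas 494, 386 and 489 reads left it at 25636299. In S34F replicates 1 to 3, 194, 116 and 289 reads entered and 327, 169 and 430 left. Reads leaving per read entering thus ranged from 2.34 to 4.70 in wild type and from 1.46 to 1.69 in S34F. For exons 2, 3, 4, 5, 7 and 8 the same ratio ranged from 0.642 to 1.67 over all libraries. At exon 6 every wild-type library lay above that range, as did S34F replicate 1 by a small margin, at 1.69. At exon 5, whose exits are the denominator of the shares above, the ratio was 1.01, 0.949 and 1.04 in wild-type replicates 1 to 3. In S34F replicates 1 to 3 it was 0.834, 0.704 and 0.837. The groups also stayed apart at exon 2, narrowly, and overlapped at exons 3, 4, 7 and 8. Why fewer reads left exon 5 than entered it in S34F was not tested.

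When the reads that entered the alternative exon without a matching exit were added to those entering exon 6, the sum came to 83.2%, 90.2% and 96.3% of the reads leaving exon 6 in wild-type replicates 1 to 3. Without them the figure was 41.9%, 42.7% and 21.3%. In S34F replicates 1 to 3 the sum was 75.8%, 78.7% and 80.0%, compared with 59.3%, 68.6% and 67.2% without them. The junction tables hold spliced reads only, so whether these RNAs continued unspliced over the 1529 nt from 25634770 to the end of exon 6 at 25636298, or ended in between, was not tested. Unannotated donors within this stretch, at 25635664, 25635722 and 25635775, were joined to exon 6 by 7, 2 and 13 reads over the 6 libraries. Any of these RNAs that left by such a donor would be counted both as unmatched and as entering exon 6. The junction into the alternative exon had 12.8 reads per read at the junction out of it over the 6 libraries. Among 19137 combinations of a cassette exon and its skipping junction in the series, 7.21% had a ratio at least as high. With an imbalance of that size counted in either direction, the figure was 17.6%. These combinations join every acceptor with every donor whose junctions had at least 10 reads. An exon with a minor splice site therefore counts more than once, with unequal ends, and neither percentage is a share of exons.

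**Figure D2:**
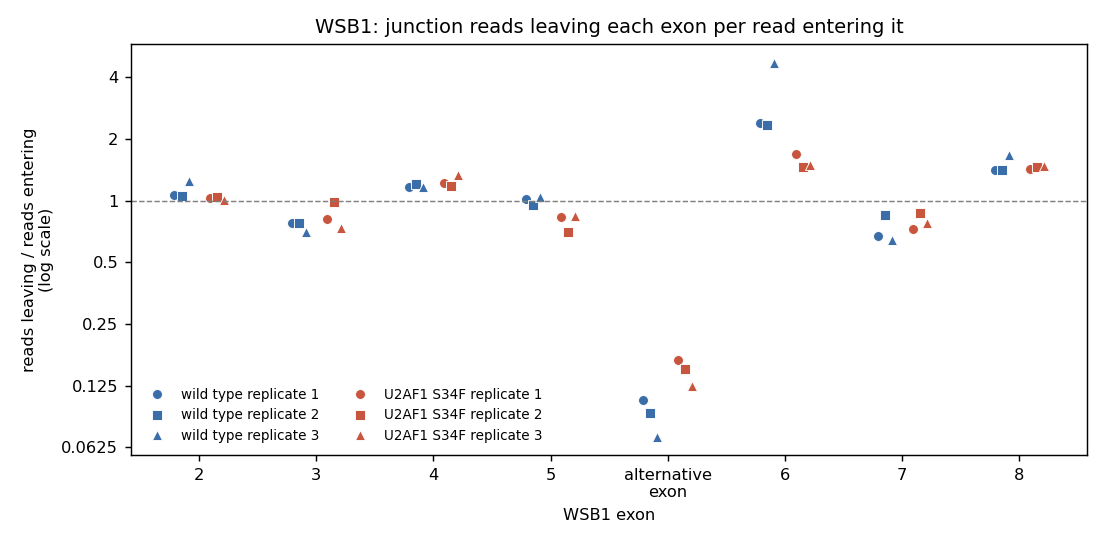
Junction reads leaving each WSB1 exon divided by junction reads entering it (vertical axis, log scale) for each exon (horizontal axis), with 1 point per library. Exits are counted at the main donor of each exon only, which for exon 7 leaves out the donor 4 nt downstream. The alternative exon lies between 0.0705 and 0.167 in all libraries, while exon 6 lies between 1.46 and 4.70, with wild type above S34F.

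At the exon 6 acceptor, 6 donors were seen, of which 1, that of exon 5, is annotated. The donor of the alternative exon held 10.6%, 9.70% and 20.2% of the reads at this acceptor in wild-type replicates 1 to 3 and 4.64%, 2.59% and 2.08% in S34F replicates 1 to 3. The exon 5 donor held 83.6%, 87.9% and 69.2% of them in wild-type replicates 1 to 3 and 92.8%, 95.7% and 97.6% in S34F replicates 1 to 3. The means were 80.2% ± 9.76 and 95.4% ± 2.42 (n = 3 each). Wild-type replicate 3 was the lowest, and without it the difference between the means fell from 15.1 to 9.62 percentage points.

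Spliced reads of WSB1 as a whole were less abundant in S34F. They numbered 131, 120.5 and 190.0 per 1000000 unique spliced reads (RPM) in wild-type replicates 1 to 3, and 95.9, 71.4 and 78.9 in S34F replicates 1 to 3. The means were 147 ± 37.5 and 82.1 ± 12.5 (n = 3 each), a log2 difference of -0.82 between the means of log2 values. Every S34F library lay below every wild-type library, and wild-type replicate 3 was the highest. Without that replicate the wild-type mean was 125.6 RPM and the log2 difference was -0.62. These are bulk samples, in which fewer cells expressing the gene and less RNA per cell cannot be told apart.

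The lower level was seen along the whole chain, apart from the junction that skips the alternative exon. Of the 9 junctions with at least 500 reads, 8 had every S34F library below every wild-type library in RPM, where 9.43% of the 49747 annotated junctions of that depth in the series did so. The 9 junctions come from the same RNA molecules and are not independent of each other. Their median log2 ratio of group means was -0.80, against 0.02 over all such junctions. For the 7 chain junctions other than that from exon 5 to exon 6, the S34F mean was between 0.451 and 0.63 of the wild-type mean. The lowest ratios were at the junctions of exon 2, 0.451 from exon 2 to exon 3 and 0.499 from exon 1 to exon 2. Exon 2 was also skipped in a larger share of reads in S34F (below). The rest lay between 0.567 and 0.63.

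Among the 9 junctions with at least 500 reads, the junction from exon 5 into the alternative exon had the largest ratio between the group means. It had 9.20, 8.26 and 20.5 RPM in wild-type replicates 1 to 3 and 2.81, 1.11 and 1.63 in S34F replicates 1 to 3, so that the wild-type mean was 6.84 times the S34F mean. The junction from exon 5 to exon 6 had 6.80, 5.82 and 3.72 RPM in wild type and 7.67, 6.14 and 7.18 in S34F. Its groups overlapped, with means of 5.44 ± 1.58 and 6.997 ± 0.781. Reads that used the acceptor of the alternative exon were thus scarcer in S34F. For reads that bypassed it, the S34F mean was 1.29 times the wild-type mean. That difference, 1.55 RPM, was close to the wild-type SD of 1.58, and wild-type replicate 3 was the lowest library. The other 7 chain junctions were at 0.451 to 0.63 of the wild-type mean, so that the bypassing junction did not fall with the rest of the gene.

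**Figure D3:**
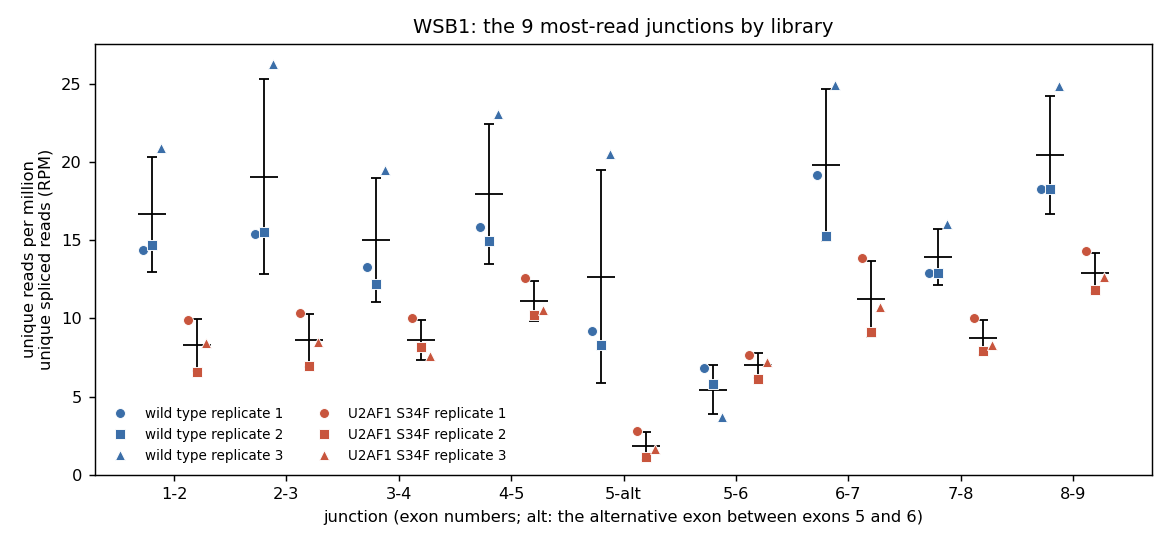
Unique reads in RPM (vertical axis) at the 9 most-read WSB1 junctions, in order along the gene (horizontal axis, exon numbers); points are libraries, the wide tick is the group mean and the bar is 1 SD (n = 3). S34F lies below wild type at every junction except that from exon 5 to exon 6, where the means are 5.44 and 6.997 RPM.

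Exon 1 was joined to 12 acceptors, 9 of them by annotated junctions. The acceptor of exon 2 took 85.3%, 94.1% and 87.5% of the reads leaving exon 1 in wild-type replicates 1 to 3 and 76.3%, 72.6% and 75.7% in S34F replicates 1 to 3. The acceptor of exon 3, whose use skips exon 2, took 42 of 428, 7 of 389 and 30 of 463 reads in wild type, and 48 of 304, 26 of 164 and 75 of 437 in S34F. These are shares of 9.81%, 1.80% and 6.48% against 15.8%, 15.9% and 17.2%. The S34F libraries were all higher and lay close together, whereas the wild-type libraries spread widely, with replicate 2 the lowest.

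The mean share of exon 2 skipping was 6.03% ± 4.03 for wild type and 16.3% ± 0.775 for S34F. In RPM the skipping junction had means of 1.16 ± 0.763 and 1.80 ± 0.319, and S34F replicate 2, at 1.44, lay below wild-type replicates 1 and 3, at 1.65 and 1.55. As at the alternative exon, the groups overlapped in the level of the skipping junction and not in that of the inclusion junctions. The length of exon 2, 169 nt, is not a multiple of 3.

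Smaller parts of the reads leaving exon 1 went to other annotated acceptors. An acceptor 93 nt inside exon 2 (last intron base 25628906) took 1.85% ± 0.713 in wild type and 3.64% ± 1.11 in S34F, with 5 to 12 reads in each library. The acceptor of exon 4 took 1.46% ± 0.38 and 2.92% ± 1.2, with 4 to 11 reads in each library. Neither pair of groups overlapped, though the gap was narrow in both: 2.59% against 2.75% at the former, and 1.73% against 1.97% at the latter. Both differences rested in part on S34F replicate 2: without it, that at the former acceptor was 1.16 in place of 1.78 percentage points, and that at exon 4 was 0.782 in place of 1.46. The junction from exon 1 to exon 4 had 147 multi-mapped reads beside 43 unique ones over the 6 libraries, and with them added the difference was 3.71 percentage points. The acceptor before an annotated 122 nt exon (25624213 to 25624334) had 11 reads over all libraries.

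**Figure D4:**
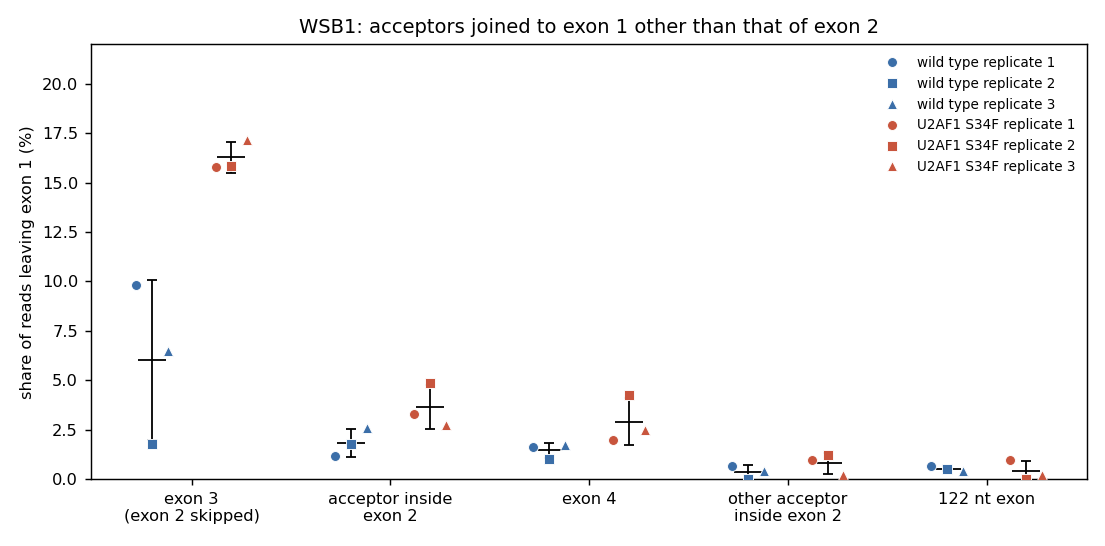
Share of the reads leaving WSB1 exon 1, in percent (vertical axis), that joined each of 5 acceptors other than that of exon 2 (horizontal axis); points are libraries, the wide tick is the group mean and the bar is 1 SD (n = 3). Skipping of exon 2 takes 15.8% to 17.2% in S34F and 1.80% to 9.81% in wild type, and the other 4 acceptors stay below 5%.

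Exons 4 and 7 were included in nearly all unique reads of both groups, with only the junction between the neighbouring exons counted as skipping. Inclusion of exon 4 was 99.8% ± 0.31 in wild type and 99.8% ± 0.346 in S34F, and that of exon 7 was 98.7% ± 0.165 and 98.1% ± 1.07. The annotated junction from exon 1 to exon 5 also skips exon 4 and was not counted there. It had 3 unique and 78 multi-mapped reads over the 6 libraries. The junction that skips exon 7 is unannotated and had 31 reads in all. A donor 4 nt downstream of that of exon 7 was joined to exon 9 by 5, 4 and 9 reads in wild-type replicates 1 to 3 and by 0, 2 and 0 in S34F, and its shares of the exon 9 acceptor overlapped between the groups.

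An unannotated 104 nt exon (25638850 to 25638953) lay in the intron between exons 8 and 9 and was read mainly in 1 library. The junction into it had 5, 2 and 41 reads in wild-type replicates 1 to 3 and 4, 0 and 0 in S34F replicates 1 to 3. The junction out of it had 5, 3 and 39 reads in wild type and 2, 0 and 0 in S34F, so that its ends were balanced, in contrast to the alternative exon. In wild-type replicate 3 the exon took 7.79% of the 526 reads leaving exon 8. The 0 of 213 and 0 of 497 reads in S34F replicates 2 and 3 allow shares of up to 1.41% and 0.604%. Mean inclusion was 3.1% ± 3.98 in wild type, 0.805% without replicate 3, and 0.296% ± 0.512 in S34F.

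The members were set against all events of the series with a fit of the same kind for each class. A call needed an adjusted p-value under 0.05 in edgeR's quasi-likelihood test (Benjamini-Hochberg over the class) and a difference of at least 10 percentage points. Among cassette combinations, 5 of the 9 in WSB1 were called, all with lower inclusion in S34F. In the series, 2.49% were called, and 1.57% were called with lower inclusion. Of these 5, 2 concerned the alternative exon with its 2 donors and 3 exon 2 with its alternative acceptors, so that they share reads. In acceptor usage, 4 of 12 WSB1 junctions were called, against 2.11%. In donor usage, 4 of 15 were called, against 0.934%. Because the gene was chosen from this contrast, nothing is read from these counts. The series counts rested on single libraries: without S34F replicate 3, edgeR called 0 of 14623 cassette combinations, with 2505 at an unadjusted p under 0.05, and without wild-type replicate 1 it called 1006.

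The groups did not overlap at 6 of the 9 cassette combinations in WSB1, 6 of the 12 junctions by acceptor usage and 9 of the 15 by donor usage. Over the series, the groups did not overlap in 29.4%, 25.2% and 22.4% of the events of these classes. The other 34 members, neither annotated nor holding at least 5% of a site with 20 or more reads in any library, had from 1 to 31 reads each over the 6 libraries, and 19 members had a single read in all.

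The 3 cassette exons elsewhere with inclusion levels closest to those of the alternative exon over the 6 libraries were found by the mean absolute difference. The closest was a 133 nt exon of chromosome 1 (plus strand, 211485697 to 211485829), with a mean difference of 6.39 percentage points. Its inclusion was 49.7% ± 13.5 in wild type and 16.8% ± 8.14 in S34F, with wild-type replicate 3 again the highest. The others were a 154 nt exon of chromosome 5 (plus strand, 7873486 to 7873639), at 43.4% ± 7.92 and 14.7% ± 3.06, and an 81 nt exon of chromosome 11 (plus strand, 61548184 to 61548264), at 44.3% ± 4.01 and 18.3% ± 3.15. All 3 were balanced, with 0.859, 0.740 and 0.947 reads entering per read leaving, compared with 12.8 for the WSB1 exon. The exons of chromosomes 1 and 5 were called under the rule above, and that of chromosome 11 was not. All 3 were selected for their likeness in inclusion, and their values are descriptions over 6 libraries.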

How the data were processed

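RNA was poly(A)-selected and sequenced as paired-end reads, per the labels' protocols, and aligned with STAR to hg19, per the submitters' processing notes (version, annotation and junction filters not given in the sources used here). Each library has 1 deposited junction table; the authors' values used are raw counts of unique and multi-mapped reads per junction, not normalized, and the largest overhang. Unique counts were the main measure. Tables were joined on position, with a missing junction counted as 0. Shares divide a junction's reads by all reads at its 5′ or 3′ splice site. Exon names follow the annotated junctions with at least 500 reads. A junction was described in full if annotated or holding at least 5% of a site with 20 or more reads in any library. The similar exons were the 3 with the smallest mean absolute difference in inclusion.

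Over all events with at least 20 reads in every library and 10 on each side, edgeR 4.0.16 (R 4.3.3) was fitted with library intercepts, a count-type term and the count type by S34F interaction, after a check on simulated data. The simulated noise had the same size for every event and was not set from these replicates, so the check does not cover their spread. Cassette exons were at most 500 nt, and the mean of their inclusion counts was rounded. DESeq2 1.42.0 was an alternative. Other steps used Python 3.11.15 with scipy 1.17.1 and pandas 2.3.3. Replicates of a group differed beyond sampling noise in every pair (chi-square per degree of freedom from 4.98 to 17.7). Members, rules and lists were chosen with earlier results of these data known. The planned ubiquitin ligase genes and cell type markers were not analysed here, because the gene table at hand is of GRCh38.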

Additional observations from a re-analysis of the deposited data

Results flagged for a closer look

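Multi-mapped reads, which the shares above leave out, made up a larger part of the WSB1 spliced reads in every S34F library than in any wild-type library: 6.63%, 5.65% and 5.66% in wild-type replicates 1 to 3 and 7.60%, 7.06% and 8.17% in S34F replicates 1 to 3, with means of 5.98% ± 0.56 and 7.61% ± 0.556 (n = 3 each). Over all junctions of the series the multi-mapped part was also higher in S34F, from 7.22% to 8.08% against 6.57% to 7.14%. At the junction into the alternative exon it was 10.2% ± 3.27 in wild type and 29.9% ± 6.13 in S34F, where 20, 9 and 35 multi-mapped reads stood beside 66, 20 and 64 unique ones. In wild-type replicates 1 to 3, 36, 24 and 29 multi-mapped reads stood beside 234, 206 and 397 unique ones. In RPM the multi-mapped reads at this junction were lower in S34F, at 0.852, 0.498 and 0.891 against 1.42, 0.963 and 1.496 in wild type, so that their larger part went with fewer unique reads. At the junction from exon 5 to exon 6 the multi-mapped part was higher in wild type on average, 18.1% ± 6.98 against 11.7% ± 0.671, and the groups overlapped. At the remaining WSB1 junctions together it was 5.07% ± 0.276 in wild type and 6.50% ± 0.376 in S34F, and the groups did not overlap. With multi-mapped reads added, the share of the alternative exon's acceptor at exon 5 was 29.8%, 18.8% and 23.4% in S34F replicates 1 to 3 and 56.1%, 57.9% and 81.5% in wild type, so that the groups stayed apart.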

How the results depend on the processing

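No WSB1 difference reversed: of 91 values under alternatives, 89 moved by less than the spread between replicates or stayed within 1.5 times the count. That spread, the SD pooled over the groups, was wide, at 13.2 percentage points for inclusion of the alternative exon. A shift from -40.9 to -30.4 points there thus counted as within it. The inclusion difference of the alternative exon, -40.9 percentage points, was -11.4 from the junction out of the exon alone; leaving out each library in turn gave -46.3 to -30.4. The exon 1 to exon 4 share difference was 3.71 percentage points with multi-mapped reads added, against 1.46 without. The log2 level difference ranged from -0.95 to -0.62 over left-out libraries.

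Calls over the series depended on the setting, in the order cassette exons, acceptor usage, donor usage, from 477, 1088 and 451. They were 289, 682 and 298 with at least 50 reads (fewer events tested), 261, 150 and 185 with DESeq2, and 1053, 2386 and 983 with no minimum difference. Leaving out each library in turn gave 0 to 1006, 77 to 1932 and 4 to 1210; the lowest were without S34F replicate 3 (for cassette exons, edgeR had 2505 of 14623 at an unadjusted p under 0.05) and the highest without wild-type replicate 1. Without wild-type replicate 2, wild-type replicate 3, S34F replicate 1 and S34F replicate 2 the counts were 129, 310, 79 and 39 for cassette exons, and each of these omissions also lowered the calls of acceptor and donor usage by more than 1.5 times. Causes were not tested unless stated. With the replicate block the calls were 212, 922 and 347. Whether the replicate numbers pair the libraries is not given in the labels. Same-numbered libraries' deviations from their group means correlated at -0.189, -0.148 and 0.00 over annotated junctions, and those of differently numbered libraries at -0.14 to 0.238. Deviations cancel out within a group, so that these correlations offset one another and do not decide the question. Depth limits the shares most in S34F replicate 2, with 131 reads leaving exon 5.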
